A study of Mus musculus with 10 samples.

Results

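Mouse embryonic stem cells that had been given a Usp17le expression plasmid and then a short hairpin RNA against Dux were compared with untransfected cells. The comparison used the TPM columns of 4 of the 10 libraries in the series, 2 labelled Usp17le OE-Dux KD and 2 labelled WT. It covered every gene with at least 0.5 TPM in at least 2 of the 10 libraries, which were 14706 of the 24370 genes in the deposited table. TPM is a read count divided by gene length and then brought to the same total in each library. Each library was here divided by the median of its ratios to an average library, and the resulting values are called scaled TPM.

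RNA of 5 groups was sequenced in the study, with 2 libraries per group, to ask whether the deubiquitinase gene Usp17le switches on genes of the 2-cell embryo by way of Dux. WT cells were kept in normal culture with no transfection. In the group labelled Usp17le OE-Dux KD, cells that already overexpressed Usp17le from a plasmid were transfected with the hairpin. Usp17le OE cells carried only the plasmid and Dux KD cells only the hairpin, both after selection with puromycin, while Dux KD-Usp17le OE cells received the same agents in the other order, and these 3 groups are used below to place single genes.

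All labels name J1, an embryonic stem cell line, whereas the methods of the paper name E3 for overexpression of Usp17l. No empty plasmid or control hairpin was analysed here, so each difference from WT includes 2 rounds of transfection and any drug selection. Nothing in the labels tells whether the libraries of a group were grown as separate cultures. What the p-values measure is thus only the spread between these libraries, and it may be technical.

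Cultured mouse embryonic stem cells resemble the epiblast of the blastocyst, and a small fraction of them passes at any time through a state that resembles the 2-cell embryo. This 2C-like state transcribes Dux, a double homeobox transcription factor of the first embryonic transcription wave, and with it Zscan4, the Eif1a-like genes, Tcstv genes and Usp17l genes. USP17LE belongs to the USP17L family of deubiquitinases, enzymes that remove ubiquitin from other proteins.

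Depth, from the reads that the table allows to be recovered, came to 33759681 and 37080854 for WT and to 34484021 and 37682581 for the libraries labelled Usp17le OE-Dux KD. Pearson's r between the libraries of a group was 0.986 and 0.987 over log2 values. The fit was made with limma on log2(scaled TPM + 0.1) over all 10 libraries, and p was adjusted by Benjamini-Hochberg over the 14706 genes. Log2 changes are Usp17le OE-Dux KD minus WT unless another pair is named, with the SE of the fit and n = 2 per group. A fold change on this scale understates the change of genes close to 0. TPM as deposited put the median gene at 0.56 on the log2 scale, and scaling brought it to 0.01. Without scaling, 84.4% of the genes called were higher, against 49.4% with it, so directions below are relative to the median gene.

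A gene-length trend ran through the comparison. Genes under 1000 bases took 43.2% and 43.0% of TPM in WT, against 30.6% and 32.1% in the libraries labelled Usp17le OE-Dux KD. Leaving out cytoplasmic ribosomal protein genes, the median log2 change rose with length from -0.88 below 500 bases through 0.04 at 2000 to 4000 bases to 0.42 from 8000 bases. Where a list of short genes is described, its values after removal of this trend (length corrected) stand beside the others, as they do for some lists of long genes. Whether the trend arose in the cells or in the preparation of the libraries was not tested.

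By the test, 8959 of 14706 genes (60.9%) differed at an adjusted p under 0.05. Of these 4430 were higher (30.1% of genes tested) and 4529 lower (30.8%) in the libraries labelled Usp17le OE-Dux KD. At least 2-fold changes were found for 2393 genes (16.3%), 1116 higher (7.59%) and 1277 lower (8.68%). With so many genes called, a single call carries little information and the size of a change carries more. Large rises included Foxd3, Trim43a and Myc, and large falls Gadd45g, Dll1 and Acta2. The groups did not overlap in 81.2% of genes, so separation of the groups is the usual case here. Against the plasmid-only group 29.7% of genes were higher and 30.5% lower, against the hairpin-only group 14.7% and 22.0%, and against the other order 16.3% and 22.8%. The 30.1% higher and 30.8% lower than in WT are the background for every list below (28.3% and 27.8% after length correction), and each list was chosen with earlier results of these data known.

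**Figure D1:**
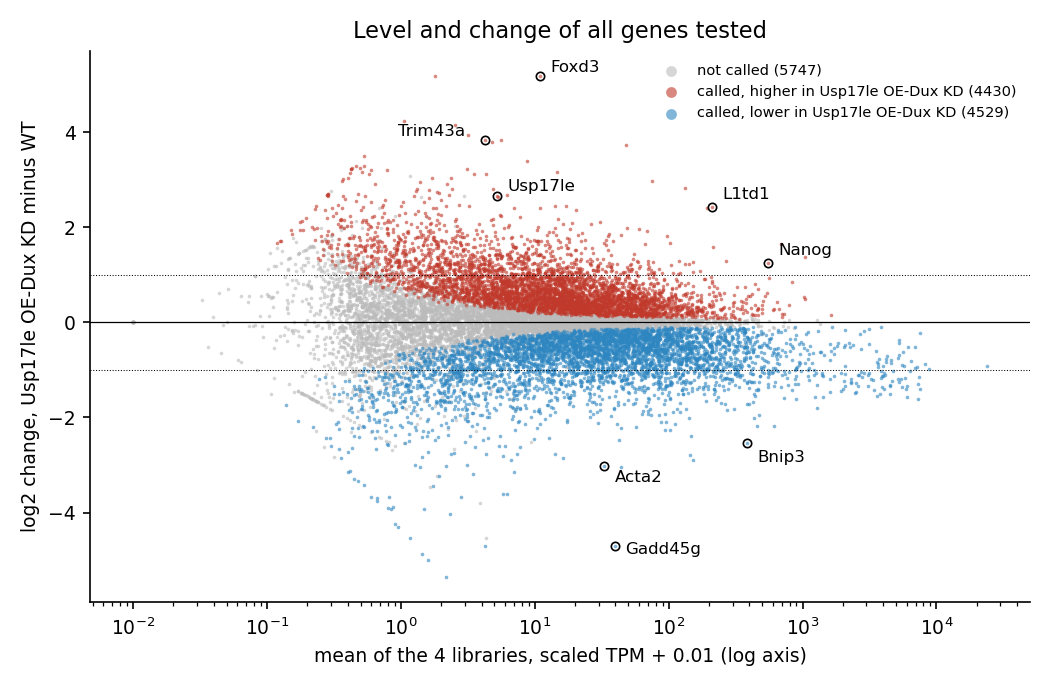
Mean level of each of the 14706 genes over the 4 libraries (scaled TPM + 0.01, log axis) against its log2 change, Usp17le OE-Dux KD minus WT. Red points are the 4430 genes called higher, blue points the 4529 called lower, grey points were not called, and dotted lines mark 2-fold. Of 138 genes with a mean above 1000 scaled TPM, 133 lie below 0, whereas large rises, such as Foxd3 at 5.18, lie further to the left.

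Both manipulated genes were examined first. Usp17le (chr7:104768049-104777470, GRCm38, minus strand, protein-coding) measured 2.18 and 0.794 scaled TPM in WT and 9.03 and 8.90 in those labelled Usp17le OE-Dux KD. Both values of the libraries labelled Usp17le OE-Dux KD lay above both WT values, at a log2 change of 2.67 ± 0.39, adjusted p = 0.000338, and WT itself spread widely, over 70 and 28 reads. Against the plasmid alone, where the mean was 32.7 ± 3.70 scaled TPM (SD, n = 2), Usp17le was lower (-1.85 ± 0.39, adjusted p = 0.00305).

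Dux, the target of the hairpin, was counted from 5 and 12 reads in WT and 15 and 16 reads in the libraries labelled Usp17le OE-Dux KD. Its level was 0.145 and 0.317 scaled TPM in WT and 0.355 and 0.349 in those labelled Usp17le OE-Dux KD. The groups did not overlap and the hairpin libraries were the higher ones, but the log2 change of 0.50 ± 0.51, adjusted p = 0.419 did not pass the test. Dux was thus not below WT in libraries whose label names a knockdown. It was below the plasmid-only group at 2.01 ± 0.210 scaled TPM (SD, n = 2) (-2.22 ± 0.51, adjusted p = 0.00364) and above the hairpin-only group at 0.0481 ± 0.0680 scaled TPM (SD, n = 2) (1.69 ± 0.51, adjusted p = 0.0267). Dux is a tandem multi-copy gene and reads that map to several places were not counted, so its level is a low estimate, and a moderate difference from WT was not detectable at this depth.

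The Zscan4 copies are the best-known marker genes of the 2C-like state and encode zinc finger proteins that act on telomeres and heterochromatin. Upstream of Zscan4d and Zscan4f the RefSeq sequence is nearly the same, and it is shown here as a description of how alike these copies are. Being mostly upstream of the transcripts, it does not tell how reads were assigned to copies. The shared stretch of 266 bases lies at chr7:11166133-11166398 (minus strand) and chr7:11397699-11397964 (plus strand) in GRCm38.p6 and reaches past the annotated start of each gene. Capitals mark the 7 bases that differ, written 5′ to 3′ along each gene.
Zscan4d: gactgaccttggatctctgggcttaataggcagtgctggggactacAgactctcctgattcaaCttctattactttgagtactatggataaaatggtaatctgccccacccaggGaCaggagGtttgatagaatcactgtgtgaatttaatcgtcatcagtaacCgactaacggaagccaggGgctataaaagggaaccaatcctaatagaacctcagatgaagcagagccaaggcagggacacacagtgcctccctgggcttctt
Zscan4f: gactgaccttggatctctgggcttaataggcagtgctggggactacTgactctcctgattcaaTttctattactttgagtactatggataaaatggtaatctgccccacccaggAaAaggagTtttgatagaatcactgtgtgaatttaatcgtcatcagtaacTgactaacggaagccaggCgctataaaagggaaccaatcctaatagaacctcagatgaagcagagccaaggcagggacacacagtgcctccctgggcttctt
The remaining 259 of 266 positions (97.4%) are identical. Against the Zscan4d sequence, Zscan4b matched at 260 of 266 positions and Zscan4c at 281 of 289. The letters GATTNAATC, a core of the sequence that DUX binds, were searched on both strands. They are in the windows (250 bases before to 50 after a start) of none of the 28 tested 2C genes that have one. Of the 10910 tested genes with a window 0.192% hold them, as do 0.268% of all 32851 windows. With letters this rare, none among 28 genes was the likely result, so the search cannot tell whether DUX acts on these genes.

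Zscan4d (chr7:11161374-11166159) measured 3.53 and 3.84 scaled TPM in WT and 8.45 and 10.6 in those labelled Usp17le OE-Dux KD, a log2 change of 1.34 ± 0.18, adjusted p = 0.000104. Zscan4f measured 2.37 and 2.48 scaled TPM in WT and 6.45 and 6.95 in those labelled Usp17le OE-Dux KD, at 1.43 ± 0.18, adjusted p = 5.63e-05. Zscan4d and Zscan4f stood about as far above WT as each other, with no overlap between groups, as in 81.2% of all genes tested. Zscan4b and Zscan4c, whose upstream sequences are about as alike, were not called in the main fit. Zscan4a, which the annotation lists as an unprocessed pseudogene, measured 4.42 and 3.43 scaled TPM in WT and 6.59 and 6.03 in those labelled Usp17le OE-Dux KD and was also higher (0.68 ± 0.15, adjusted p = 0.00307). Zscan4c measured 5.28 and 3.66 scaled TPM in WT and 8.91 and 7.14 in those labelled Usp17le OE-Dux KD and did not pass the test (0.84 ± 0.77, adjusted p = 0.382), although its groups did not overlap. Zscan4c was called higher with a pseudocount of 1 (0.73, adjusted p = 0.0437), in a fit of the 4 libraries alone (0.84, adjusted p = 0.00805) and with limma voom on recovered reads (0.86, adjusted p = 0.0107), so its call depends on the fit. Zscan4b stayed below 0.5 scaled TPM in all 4 libraries. Reads shared between copies were dropped before counting, so values of single copies are uncertain.

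Compared with the groups that had 1 manipulation, these copies lay in between. Zscan4d had a mean of 90 ± 5.41 scaled TPM (SD, n = 2) with the plasmid alone and 0.495 ± 0.0603 scaled TPM (SD, n = 2) with the hairpin alone. The libraries labelled Usp17le OE-Dux KD were below the former (-3.23 ± 0.18, adjusted p = 2.04e-07) and above the latter (4.01 ± 0.18, adjusted p = 4.27e-07). Zscan4f was placed likewise, at -3.05 ± 0.18, adjusted p = 2.53e-07 against the plasmid alone and 3.42 ± 0.18, adjusted p = 1.02e-06 against the hairpin alone. In bulk RNA, fewer cells in the 2C-like state and less RNA per such cell cannot be told apart.

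Of the 71 genes of the 2C list, 66 were in the table and 52 passed the filter. A gene of this list could pass through the plasmid-only libraries alone, or through the libraries labelled Usp17le OE-Dux KD alone, so the 52 are not all members. Among the 52, 34 were higher, none was lower and 18 were not called, against 30.1% higher and 30.8% lower over all genes. Their median was 0.99, or 1.20 after length correction, where 37 were higher and none lower. The summed level of the list was 175 and 179 scaled TPM in WT and 288 and 296 in those labelled Usp17le OE-Dux KD. These counts, medians and sums include Usp17le, which the plasmid itself expresses, and all 5 Usp17l genes are among the 34.

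All 5 Usp17l genes were higher, though the plasmid is named for Usp17le alone. Usp17lb measured 2.17 and 2.16 scaled TPM in WT and 11 and 12.7 in those labelled Usp17le OE-Dux KD, at 2.40 ± 0.42, adjusted p = 0.00134. Usp17la measured 0.487 and 0.726 scaled TPM in WT and 3.84 and 3.57 in those labelled Usp17le OE-Dux KD, at 2.45 ± 0.40, adjusted p = 0.000439. No member of this family overlapped between groups, which also held for 81.2% of all genes tested. The log2 change of Usp17ld was 2.16 ± 0.44, adjusted p = 0.00167, and that of Usp17lc was 1.88 ± 0.70, adjusted p = 0.0493, a call lost when any 1 of the 4 libraries was left out (adjusted p from 0.0924 to 0.178) or limma ran without its trend and robust options (adjusted p = 0.0701). These genes are close relatives in sequence, so their counts are uncertain copy by copy.

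Eif1a-like genes, which encode relatives of a translation initiation factor and are transcribed in the 2-cell embryo, lay within 1 log2 unit of WT, and 3 of the 6 tested were higher. Gm5662 measured 10.8 and 10.7 scaled TPM in WT and 12.5 and 15.7 in those labelled Usp17le OE-Dux KD, and its change of 0.38 ± 0.13, adjusted p = 0.0301 was small beside its mean of 202 ± 7.38 scaled TPM (SD, n = 2) with the plasmid alone. That call was lost without WT replicate 1 (0.39, adjusted p = 0.0907), without WT replicate 2 (0.38, adjusted p = 0.099) and without Usp17le OE-Dux KD replicate 2 (0.22, adjusted p = 0.242), and in the fit without trend and robust options (0.38, adjusted p = 0.0658). Gm2016 (log2 change 0.96 ± 0.13, adjusted p = 8.83e-05) and Gm8300 (0.79 ± 0.16, adjusted p = 0.00174) were higher. Gm2022 (0.74 ± 0.45, adjusted p = 0.19), Gm21319 (-0.79 ± 0.73, adjusted p = 0.372) and BB287469 (-0.18 ± 0.43, adjusted p = 0.74) were not called. Gm2022 was called higher without WT replicate 2 (1.45, adjusted p = 0.00534), as deposited (1.29, adjusted p = 0.036) and with voom (0.73, adjusted p = 0.0404). Tcstv3, of a gene family transcribed at the 2-cell stage, measured 4.21 and 4.81 scaled TPM in WT and 4.59 and 5.93 in those labelled Usp17le OE-Dux KD and overlapped between groups (0.21 ± 0.16, adjusted p = 0.29), though it passed after length correction (0.90, adjusted p = 0.000873) and as deposited (0.77, adjusted p = 0.00155). Its mean was 27.5 ± 0.698 scaled TPM (SD, n = 2) with the plasmid alone. Tcstv1 measured 0.268 and 0.244 scaled TPM in WT and 0.274 and 0.101 in those labelled Usp17le OE-Dux KD, and it was not called either (-0.38 ± 0.55, adjusted p = 0.571).

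Other 2C genes differed much more from WT. Trim43a (chr9:88580891-88588819), a tripartite motif gene of the cleavage-stage embryo, measured 0.415 and 0.524 scaled TPM in WT and 7.18 and 8.95 in those labelled Usp17le OE-Dux KD, a rise of 14.3-fold (3.84 ± 0.22, adjusted p = 2.76e-07). Pramel6 (chr2:87506565-87510872) measured 0.229 and 0.139 scaled TPM in WT and 4.49 and 5.30 in those labelled Usp17le OE-Dux KD, at 4.15 ± 0.37, adjusted p = 5.05e-06. Its close relative Pramel7 measured 0.189 and 0.862 scaled TPM in WT and 4.41 and 4.04 in those labelled Usp17le OE-Dux KD, at 3.03 ± 0.49, adjusted p = 0.000435. Neither gene overlapped between groups, which is the usual case over all genes tested. Gm12794 (2.90 ± 0.44, adjusted p = 0.000241) and Tdpoz4 (2.78 ± 0.84, adjusted p = 0.019) were also higher, the latter not without WT replicate 1 (2.33, adjusted p = 0.112) or without Usp17le OE-Dux KD replicate 1 (2.52, adjusted p = 0.0879).

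Trim43a and Pramel6 were placed differently among the groups. Trim43a was far below the plasmid-only group (-3.07 ± 0.22, adjusted p = 1.18e-06), where its mean was 68.1 ± 2.22 scaled TPM (SD, n = 2), and above the hairpin-only group (3.79 ± 0.22, adjusted p = 2.24e-06). Pramel6 had a mean of 5.71 ± 1.75 scaled TPM (SD, n = 2) with the plasmid alone, and the difference from it of -0.19 ± 0.37, adjusted p = 0.678 did not pass the test. Against the hairpin alone Pramel6 was higher (3.07 ± 0.37, adjusted p = 0.000178).

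**Figure D2:**
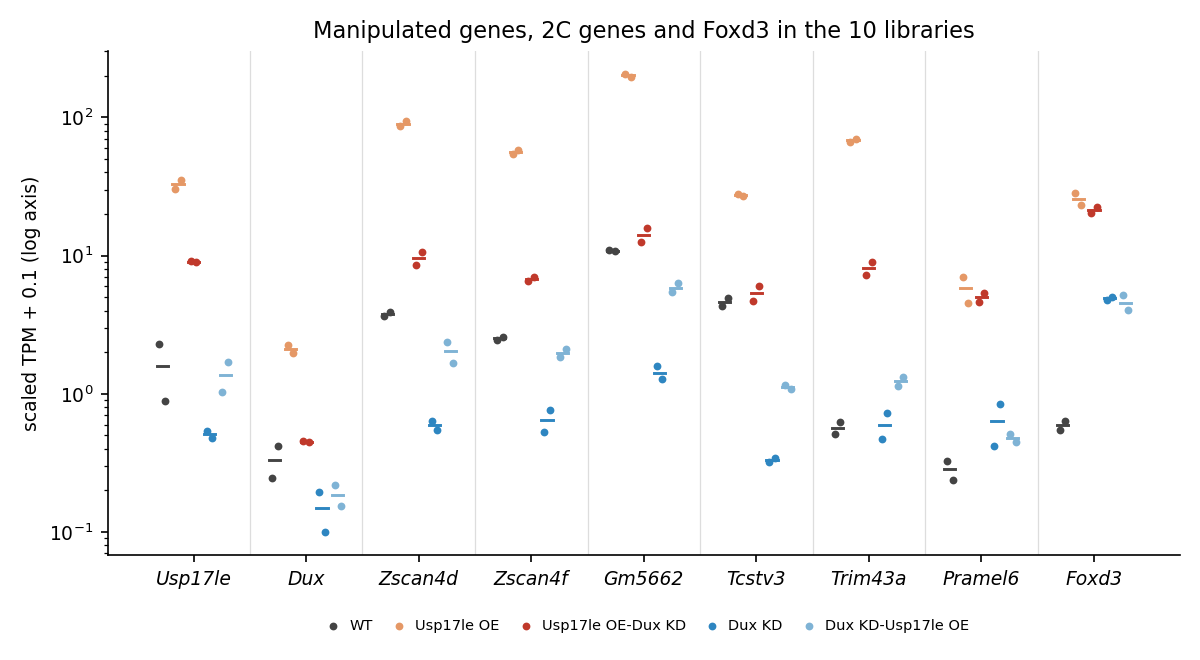
Scaled TPM + 0.1 (log axis) of Usp17le, Dux, 6 other 2C genes and Foxd3 in each of the 10 libraries, coloured by group, with a bar at each group mean. Zscan4d, Zscan4f and Trim43a of the libraries labelled Usp17le OE-Dux KD (red) lie between WT (dark grey) and Usp17le OE (orange), Gm5662 and Tcstv3 lie close to WT, and Pramel6 and Foxd3 lie close to Usp17le OE.

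The pluripotency list was tested in full, with 38 of 38 genes, and 27 were higher and 7 lower (median 0.64, or 0.61 after length correction). Transcription factors carried this pattern, with 19 of 20 higher and a median of 1.17, whereas the other pluripotency-associated genes had 8 of 18 higher and 6 lower. In all 4 libraries Pou5f1 was at 1492 scaled TPM or more, Nanog at 325 or more and Sox2 at 327 or more, so the markers that define embryonic stem cells were present. Of 16 fibroblast feeder markers, 10 were under 1 scaled TPM in all 4 libraries, and the sum of the list was 34.8, 35.2, 36.6 and 35.3.

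Foxd3 (chr4:99656299-99658622), a forkhead factor needed to keep epiblast cells and embryonic stem cells, measured 0.445 and 0.540 scaled TPM in WT and 20.4 and 22.5 in those labelled Usp17le OE-Dux KD. This was a rise of 36.4-fold (5.18 ± 0.15, adjusted p = 5.5e-09), and the lower of the hairpin-plus-plasmid values was far above either WT value. The difference from the plasmid-only group did not pass the test (-0.25 ± 0.15, adjusted p = 0.188), and Foxd3 was above the hairpin-only group (2.13 ± 0.15, adjusted p = 8.74e-06). L1td1 (chr4:98726734-98738480), which encodes an RNA-binding protein found in pluripotent cells, measured 62.9 and 68.3 scaled TPM in WT and 349 and 356 in those labelled Usp17le OE-Dux KD, at 2.42 ± 0.05, adjusted p = 8.78e-10. L1td1 was higher than with the plasmid alone (0.79 ± 0.05, adjusted p = 2.87e-07) and slightly higher than with the hairpin alone (0.23 ± 0.05, adjusted p = 0.00361).

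Factors of the naive state rose together. Klf4 (chr4:55527143-55532466), a Krüppel-like factor downstream of LIF, measured 43.4 and 42.9 scaled TPM in WT and 152 and 153 in those labelled Usp17le OE-Dux KD, at 1.82 ± 0.04, adjusted p = 9.22e-10. Nanog (chr6:122707489-122714633), a homeobox factor that sustains self-renewal, measured 331 and 325 scaled TPM in WT and 788 and 762 in those labelled Usp17le OE-Dux KD, at 1.24 ± 0.03, adjusted p = 4.41e-09. Zfp42, the zinc finger gene known as Rex1, measured 573 and 582 scaled TPM in WT and 1494 and 1491 in those labelled Usp17le OE-Dux KD, at 1.37 ± 0.03, adjusted p = 1.51e-09. In each of these genes the replicates lay within a few percent of each other and the groups were far apart. Sox2 (0.40 ± 0.06, adjusted p = 0.000179) and Esrrb (0.57 ± 0.04, adjusted p = 6.83e-07) rose less, and Trim71, a developmental ubiquitin ligase gene (1.39 ± 0.08, adjusted p = 3.61e-07), rose more than these.

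Pou5f1 (chr17:35506018-35510772), which encodes the core factor OCT4, went the other way. It measured 2126 and 2111 scaled TPM in WT and 1492 and 1509 in those labelled Usp17le OE-Dux KD, and its change of -0.50 ± 0.03, adjusted p = 6.35e-07 became -0.14 after length correction and 0.07 (adjusted p = 0.0936) as deposited, so its direction depends on the scaling. Tdgf1, a Nodal co-receptor gene, was lower as well (-0.66 ± 0.04, adjusted p = 1.71e-07), though not by the test as deposited (-0.10, adjusted p = 0.0573). Dppa5a, a short gene, measured 6561 and 6298 scaled TPM in WT and 3929.5 and 4087 in those labelled Usp17le OE-Dux KD and was lower (-0.68 ± 0.08, adjusted p = 7.53e-05), but it turned to 0.20 (adjusted p = 8.73e-05) after length correction and was not called as deposited (-0.12, adjusted p = 0.058). Eras, a gene for a constitutively active RAS protein of embryonic stem cells, had a change of -0.58 ± 0.05, adjusted p = 4.74e-06 that was called neither after length correction (-0.03, adjusted p = 0.677) nor as deposited (-0.02, adjusted p = 0.8).

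Of 18 formative and primed epiblast genes tested, 7 were higher and 5 lower (median 0.16). Zic2 measured 5.38 and 6.12 scaled TPM in WT and 17.8 and 18.1 in those labelled Usp17le OE-Dux KD, at 1.63 ± 0.09, adjusted p = 1.94e-07. Otx2, a homeobox gene active as cells leave the naive state, rose by less (0.95 ± 0.12, adjusted p = 4.93e-05). Igfbp2, a gene for an insulin-like growth factor binding protein, measured 1809.8 and 1754 scaled TPM in WT and 1107 and 1093 in those labelled Usp17le OE-Dux KD and was lower (-0.70 ± 0.03, adjusted p = 8.69e-08). Members of this list moved in both directions.

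Signalling genes were grouped by role, beginning with ligands of the Nodal and activin pathway, which signal through SMAD2 and SMAD3. Nodal itself measured 15.4 and 15.7 scaled TPM in WT and 58.6 and 54.7 in those labelled Usp17le OE-Dux KD, at 1.86 ± 0.06, adjusted p = 9.24e-09, and Inhbb, which encodes an activin subunit, measured 8.25 and 9.22 scaled TPM in WT and 25.5 and 26.4 in those labelled Usp17le OE-Dux KD, at 1.56 ± 0.06, adjusted p = 3.09e-08. Among inhibitors and targets, Lefty2 (1.85 ± 0.09, adjusted p = 7.6e-08), Fst, the gene of the activin-binding protein follistatin (1.22 ± 0.24, adjusted p = 0.0013), and Smad7 (1.03 ± 0.06, adjusted p = 2e-07) were higher and Skil (-0.62 ± 0.05, adjusted p = 3.05e-06) lower, the last not as deposited (-0.06, adjusted p = 0.477). Only some ligands and inhibitors rose, and Gdf3 (-0.035), Inha (-1.017) and Lefty1 (0.268) of the same list were not called. Of the 17 genes tested, 6 were higher, 2 lower and 9 not called (median 0.12), against 30.1% higher and 30.8% lower over all genes. The receptor genes Acvr1b, Acvr2a and Acvr2b were among those not called. The list summed to 2339.5 and 2340.3 scaled TPM in WT and to 1701.3 and 1610.8 in those labelled Usp17le OE-Dux KD.

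Feedback and target genes of the ERK pathway, which FGF4 activates in these cells, were higher in 10 of 14 cases and lower in 2 (median 0.49). Spry4, a Sprouty inhibitor of receptor tyrosine kinases, measured 4.47 and 4.17 scaled TPM in WT and 24.1 and 24.1 in those labelled Usp17le OE-Dux KD, at 2.45 ± 0.07, adjusted p = 3.52e-09. Dusp6, an ERK phosphatase gene, measured 5.29 and 4.09 scaled TPM in WT and 15.8 and 13.2 in those labelled Usp17le OE-Dux KD, at 1.61 ± 0.12, adjusted p = 1.86e-06. Spry2 (1.08 ± 0.07, adjusted p = 4e-07), Etv5, an ETS factor gene (1.21 ± 0.04, adjusted p = 1.22e-08), and Phlda1 (1.01 ± 0.18, adjusted p = 0.000666) rose too, while Etv4 (-0.67 ± 0.05, adjusted p = 2.43e-06) and Ier3 (-0.87 ± 0.08, adjusted p = 4.53e-06) fell, Etv4 not as deposited (-0.10, adjusted p = 0.0937). For Spry4 and Dusp6 the differences from the hairpin-only group did not pass the test (0.05 ± 0.07, adjusted p = 0.602 and -0.02 ± 0.12, adjusted p = 0.94), and both were below the plasmid-only group (-0.92 ± 0.07, adjusted p = 1.1e-06 and -1.09 ± 0.12, adjusted p = 3.14e-05).

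Immediate early genes, transcribed within minutes of a stimulus, split into 9 higher and 6 lower of 21. Egr1, a zinc finger factor gene, measured 2.98 and 2.75 scaled TPM in WT and 27.2 and 26 in those labelled Usp17le OE-Dux KD, at 3.17 ± 0.08, adjusted p = 3.52e-09. The YAP-responsive genes Cyr61 (2.07 ± 0.08, adjusted p = 2.42e-08) and Ctgf (1.98 ± 0.15, adjusted p = 1.9e-06) rose, and Ier2 rose less (0.72 ± 0.05, adjusted p = 5.04e-07). Junb (-1.14 ± 0.06, adjusted p = 1.55e-07) and Maff (-1.21 ± 0.18, adjusted p = 0.000312), which encode partners in AP-1 type dimers, fell.

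Myc (chr15:61985391-61990374), a growth-promoting transcription factor gene of low level in WT, measured 1.42 and 1.47 scaled TPM in WT and 15.4 and 16.8 in those labelled Usp17le OE-Dux KD. The rise was 10.5-fold (3.39 ± 0.11, adjusted p = 9.54e-09), and Myc stood below the plasmid-only group (-1.01 ± 0.11, adjusted p = 3.09e-05) and above the hairpin-only group (1.04 ± 0.11, adjusted p = 0.000101). Mycn, its paralog and the more abundant of the pair in these libraries, measured 19.5 and 19.8 scaled TPM in WT and 77.6 and 77.7 in those labelled Usp17le OE-Dux KD, at 1.98 ± 0.06, adjusted p = 5.31e-09. Mycl rose as well (1.29 ± 0.13, adjusted p = 1.2e-05). Of the 11 genes of the Myc and Max network, 8 were higher and 3 lower, but only 5 and 1 after length correction.

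**Figure D3:**
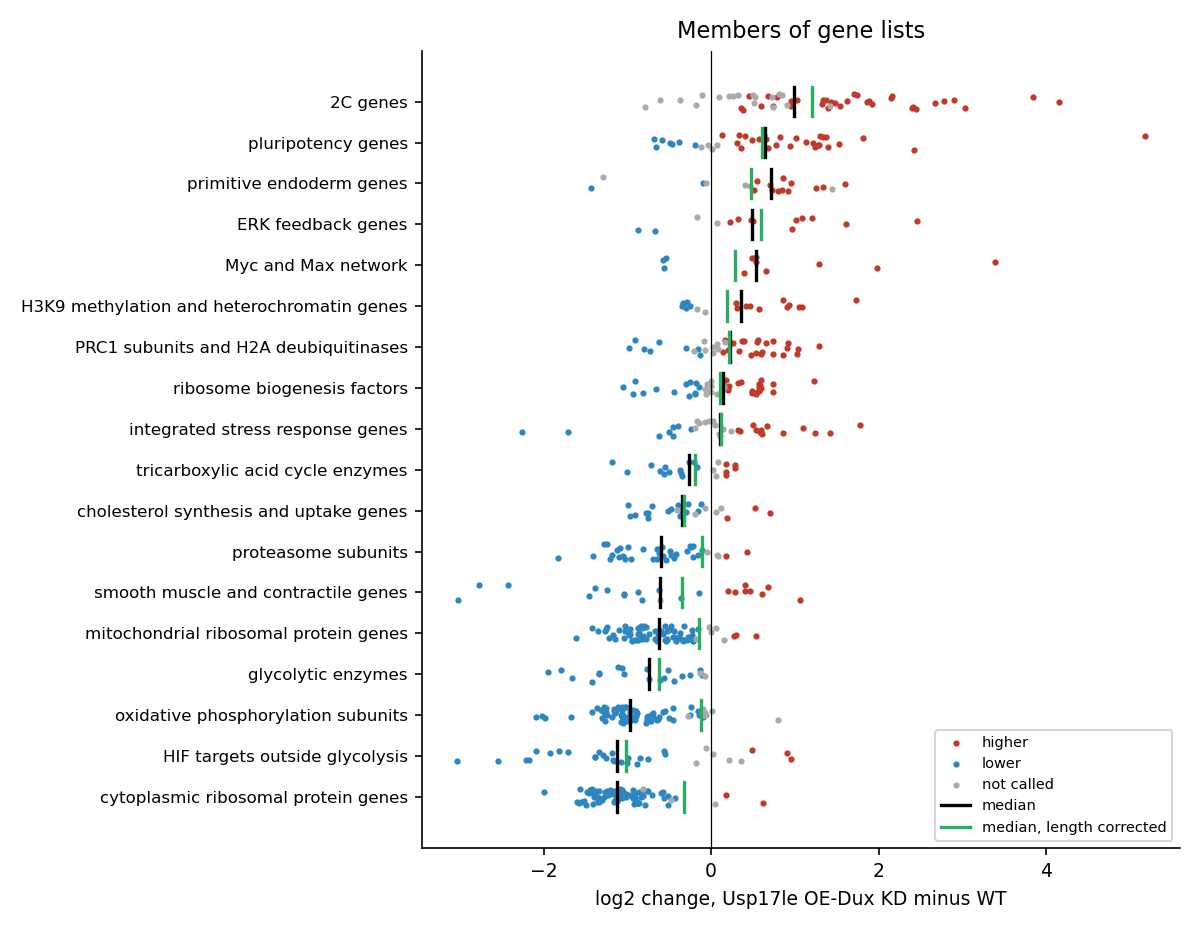
Log2 change (Usp17le OE-Dux KD minus WT) of each tested member of 18 gene lists, red for called higher, blue for called lower and grey for not called, with the list median in black and the median after length correction in green. The 2C list (median 0.99) and the pluripotency list (0.64) lie to the right, glycolytic enzymes (-0.74) and HIF targets (-1.12) lie to the left on either scale, and the median of oxidative phosphorylation subunits moves from -0.97 to -0.12 after length correction.

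Genes that hypoxia-inducible factor (HIF) switches on when oxygen is low were mostly lower, many of them by more than 2-fold. HIF binds DNA at a core of ACGTG letters, and its targets supply glucose import, glycolysis and mitophagy. Of 32 HIF targets outside glycolysis that were tested, 24 were lower, 3 higher and 5 not called (median -1.12, or -1.02 after length correction with 25 lower and 2 higher). Their summed level was 4325 and 4325 scaled TPM in WT and 1574 and 1597 in those labelled Usp17le OE-Dux KD, with no overlap between groups.

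Upstream sequences of Bnip3 and of the glycolytic genes Pgk1 and Slc2a1 are shown because these abundant genes stand for mitophagy, glycolysis and glucose import, with the letters ACGTG in capitals wherever they occur on either strand. Each runs 5′ to 3′ along its gene from 250 bases before to 50 after a RefSeq start in GRCm38.p6, for Bnip3 at chr7:138909457-138909756 (minus strand), for Pgk1 at chrX:106186850-106187149 (plus strand) and for Slc2a1 at chr4:119108495-119108794 (plus strand).
Bnip3: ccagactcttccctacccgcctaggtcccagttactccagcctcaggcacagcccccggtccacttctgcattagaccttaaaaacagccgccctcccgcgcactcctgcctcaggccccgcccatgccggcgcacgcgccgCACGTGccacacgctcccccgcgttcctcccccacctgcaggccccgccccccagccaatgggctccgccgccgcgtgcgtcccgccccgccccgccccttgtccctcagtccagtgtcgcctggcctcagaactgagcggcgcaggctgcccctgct
Pgk1: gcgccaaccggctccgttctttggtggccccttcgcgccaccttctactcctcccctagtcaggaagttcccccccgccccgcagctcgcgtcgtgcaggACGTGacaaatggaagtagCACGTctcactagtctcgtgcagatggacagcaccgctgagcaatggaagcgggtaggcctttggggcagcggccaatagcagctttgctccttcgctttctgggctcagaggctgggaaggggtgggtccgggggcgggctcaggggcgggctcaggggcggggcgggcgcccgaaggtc
Slc2a1: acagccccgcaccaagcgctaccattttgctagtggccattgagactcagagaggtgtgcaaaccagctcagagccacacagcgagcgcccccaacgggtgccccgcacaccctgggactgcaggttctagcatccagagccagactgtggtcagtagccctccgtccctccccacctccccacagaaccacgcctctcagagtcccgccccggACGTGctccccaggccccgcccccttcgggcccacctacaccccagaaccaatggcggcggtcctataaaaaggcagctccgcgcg
Bnip3 holds CACGTG, which counts once on each strand, so its 2 matches overlap. Pgk1 holds 2 separate matches and Slc2a1 holds 1. Across RefSeq windows ACGTG stood in 19.6% of 32851, and 28.6% of 10910 tested genes had it in at least 1 window. The share was 17 of 24 HIF targets with a window, 14 of 18 of those called lower and 3 of 3 of those called higher, and 13 of 20 glycolytic genes. A match is a description of the letters and not of binding.

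Bnip3 (chr7:138890836-138909519), a mitophagy receptor gene, measured 663 and 659.5 scaled TPM in WT and 112 and 114 in those labelled Usp17le OE-Dux KD, a fall of 5.84-fold (-2.55 ± 0.03, adjusted p = 8.99e-11). It stayed at -2.32 after length correction. Fam162a, a HIF-responsive mitochondrial protein gene, measured 1011 and 1001 scaled TPM in WT and 219 and 226 in those labelled Usp17le OE-Dux KD, at -2.18 ± 0.07, adjusted p = 1.87e-08. Adm, which encodes the vasodilator adrenomedullin, measured 80 and 76.1 scaled TPM in WT and 10.6 and 8.38 in those labelled Usp17le OE-Dux KD, at -3.04 ± 0.57, adjusted p = 0.00425. In all 3 genes the WT libraries were several-fold above the others. Ankrd37 (-2.21 ± 0.09, adjusted p = 2.35e-08), Ndufa4l2 (-2.09 ± 0.16, adjusted p = 1.17e-05), Higd1a (-1.93 ± 0.12, adjusted p = 1.82e-06) and Ddit4, an inhibitor of mTORC1 (-1.71 ± 0.08, adjusted p = 1.03e-07), fell likewise. Against this trend Ak4, a mitochondrial adenylate kinase gene, measured 53.1 and 51.2 scaled TPM in WT and 99.3 and 102 in those labelled Usp17le OE-Dux KD and was higher (0.95 ± 0.04, adjusted p = 6.99e-08), as was Rbpj, the Notch effector (0.91 ± 0.06, adjusted p = 4.16e-07).

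Levels with a single manipulation are given for comparison. Bnip3 had a mean of 73.6 ± 0.751 scaled TPM (SD, n = 2) with the plasmid alone and 232 ± 6.61 scaled TPM (SD, n = 2) with the hairpin alone, and the libraries labelled Usp17le OE-Dux KD differed from both (0.62 ± 0.03, adjusted p = 1.63e-07 and -1.04 ± 0.03, adjusted p = 1.13e-07). Adm was above the plasmid-only group, at 1.38 ± 1.23 scaled TPM (SD, n = 2) (2.98 ± 0.57, adjusted p = 0.00464), and its difference from the hairpin-only group did not pass the test (-0.66 ± 0.57, adjusted p = 0.426).

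Of 21 glycolytic genes tested, 19 were lower, none was higher and 2 were not called (median -0.74), and all 21 were lower after length correction (median -0.62). As deposited, 7 were higher and 11 lower, against 59.5% and 11.0% of all genes. The sum was 29754 and 29025 scaled TPM in WT and 17624 and 17701 in those labelled Usp17le OE-Dux KD. Slc2a1 (chr4:119108711-119137983), the glucose transporter GLUT1, measured 1244 and 1201 scaled TPM in WT and 456 and 453 in those labelled Usp17le OE-Dux KD, at -1.43 ± 0.03, adjusted p = 2.2e-09. Pgk1 (chrX:106187100-106203699), the kinase that makes the first ATP of glycolysis, measured 3014 and 2968 scaled TPM in WT and 1188 and 1172 in those labelled Usp17le OE-Dux KD, at -1.34 ± 0.03, adjusted p = 9.22e-10. Aldoc, an aldolase gene, measured 133 and 136 scaled TPM in WT and 33.1 and 36.6 in those labelled Usp17le OE-Dux KD, at -1.95 ± 0.06, adjusted p = 5.17e-09. The groups were separate in each of them, as in most genes tested.

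Further along the pathway, Ldha, the subunit of lactate dehydrogenase that favours lactate, measured 3668 and 3526 scaled TPM in WT and 1666 and 1659 in those labelled Usp17le OE-Dux KD, at -1.11 ± 0.03, adjusted p = 3.57e-09. Aldoa, the most abundant aldolase, changed by -0.77 ± 0.03, adjusted p = 1.11e-08, Eno3 by -1.67 ± 0.12, adjusted p = 1.64e-06, Eno2 by -1.79 ± 0.28, adjusted p = 0.000282 and the lactate exporter gene Slc16a3 by -1.34 ± 0.04, adjusted p = 3.52e-09. Gapdh measured 8253 and 7998 scaled TPM in WT and 5618 and 5739 in those labelled Usp17le OE-Dux KD, and its change of -0.52 ± 0.03, adjusted p = 4.39e-07 was 0.05 (adjusted p = 0.368) as deposited, so its direction depends on the scaling. With the plasmid alone Aldoa was at 847 ± 3.24 scaled TPM (SD, n = 2), and the libraries labelled Usp17le OE-Dux KD were higher (1.71 ± 0.03, adjusted p = 1.83e-10). Against the hairpin alone Aldoa was lower (-0.71 ± 0.03, adjusted p = 2.33e-07).

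**Figure D4:**
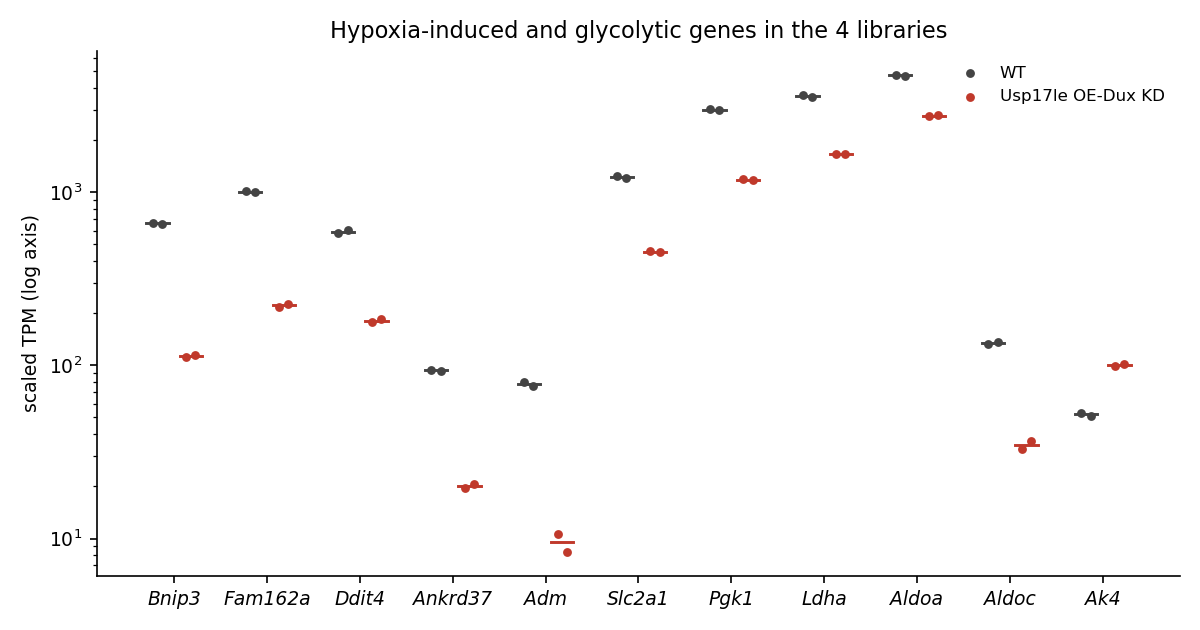
Scaled TPM (log axis) of 6 hypoxia-induced genes outside glycolysis and 5 genes of glucose import and glycolysis in the 2 WT libraries (dark grey) and the 2 libraries labelled Usp17le OE-Dux KD (red), with a bar at each mean. All genes but Ak4 were lower in red, from 1.71-fold for Aldoa to 8.22-fold for Adm.

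Mitochondrial respiratory genes were nearly all lower, but by much less once the length trend was removed. Of 79 subunits of oxidative phosphorylation encoded in the nucleus, 72 were lower, none was higher and 7 were not called (median -0.97), while after length correction 37 were lower and 14 higher (median -0.12). Complex I had 34 of 36 lower, complexes III and IV 22 of 26 and ATP synthase 16 of 17. Their median length was 681 bases, and genes of 400 to 1000 bases outside the ribosome had a median of -0.78. Cox4i1, a subunit of cytochrome oxidase, measured 3201 and 3171 scaled TPM in WT and 1365 and 1431 in those labelled Usp17le OE-Dux KD, at -1.19 ± 0.05, adjusted p = 5.54e-08 (-0.42 length corrected). Its hypoxia-associated isoform Cox4i2 measured 40.4 and 42.2 scaled TPM in WT and 9.76 and 11 in those labelled Usp17le OE-Dux KD, at -1.98 ± 0.19, adjusted p = 2.32e-05 (-1.18 length corrected). Atp5e, a short subunit gene of ATP synthase, changed by -2.01 ± 0.20, adjusted p = 0.000194 (-0.91 length corrected).

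Among 21 genes of the tricarboxylic acid cycle, 13 were lower and 5 higher (median -0.26, and 0.31 as deposited). Sdhd, a membrane anchor of succinate dehydrogenase, measured 395 and 382 scaled TPM in WT and 169 and 173 in those labelled Usp17le OE-Dux KD, at -1.18 ± 0.04, adjusted p = 8.87e-09. Mdh2, mitochondrial malate dehydrogenase, rose slightly (0.28 ± 0.04, adjusted p = 7e-05).

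Genes for cytoplasmic ribosomal proteins made up 32.6% and 32.4% of all TPM in the WT pair, compared with 21.97% and 23.04% in the libraries labelled Usp17le OE-Dux KD. Of 83 tested, 78 were lower and 2 higher (median -1.12), and 54 were lower and 9 higher after length correction (median -0.32). Their sum was 400665 and 395930.4 scaled TPM in WT and 179466 and 193013 in those labelled Usp17le OE-Dux KD. Rps12 of the small subunit measured 11312 and 10588 scaled TPM in WT and 3458 and 3743 in those labelled Usp17le OE-Dux KD, at -1.60 ± 0.10, adjusted p = 5.83e-06 (-0.61 length corrected). Rpl12 of the large subunit changed by -1.30 ± 0.04, adjusted p = 5.31e-09 (-0.42 length corrected). The 2 that rose were Rpl10l, a retrocopy of Rpl10 known from the testis (0.62 ± 0.06, adjusted p = 1.24e-05), and Rps4l (0.18 ± 0.04, adjusted p = 0.00344). The annotation lists Rps4l as a transcribed processed pseudogene.

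Mitochondrial ribosomal protein genes followed, with 68 of 76 lower and 3 higher (median -0.62), or 38 and 21 after length correction (median -0.15). Mrpl53 measured 110.0 and 104 scaled TPM in WT and 34.8 and 35.1 in those labelled Usp17le OE-Dux KD, at -1.61 ± 0.06, adjusted p = 2.39e-08, and Mrps2 measured 63.3 and 63.3 scaled TPM in WT and 90.7 and 93 in those labelled Usp17le OE-Dux KD, at 0.54 ± 0.05, adjusted p = 7.02e-06. Proteasome subunits had 33 of 38 lower and 2 higher (median -0.60), or 18 and 9 after length correction (median -0.11). Psma3 and Psma7, subunits of the 20S core, fell by 1.25 and 1.21 on the log2 scale and stayed at -0.88 and -0.93 after length correction, whereas the lid subunit gene Psmd3 rose (0.43 ± 0.05, adjusted p = 1.69e-05).

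**Figure D5:**
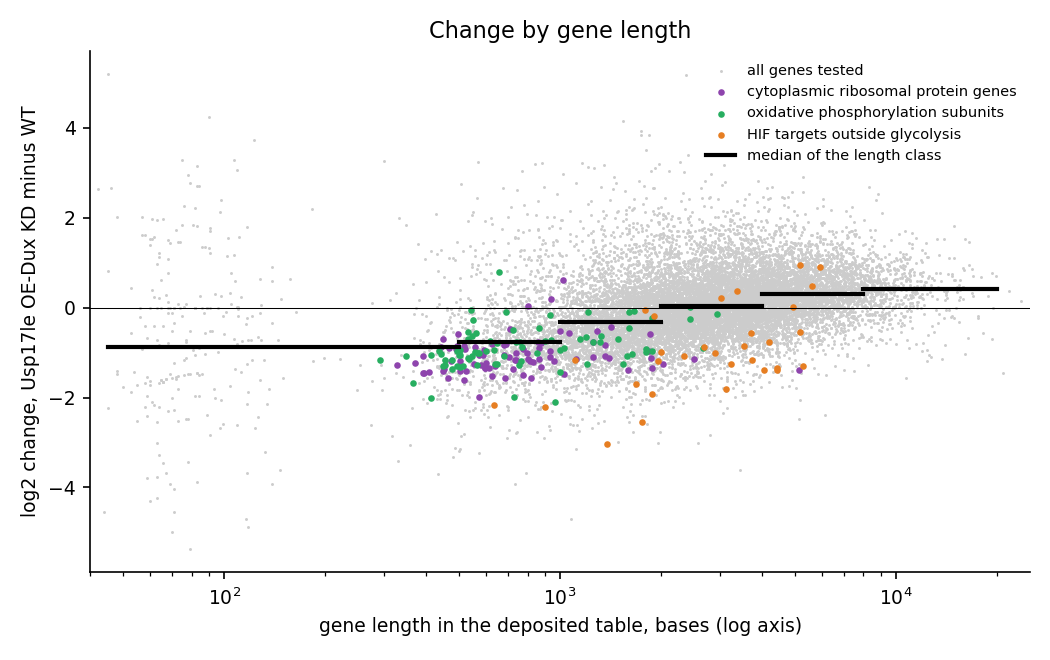
Gene length in the deposited table (bases, log axis) against log2 change (Usp17le OE-Dux KD minus WT) for all genes tested (grey), ribosomal protein genes (purple), oxidative phosphorylation subunits (green) and HIF targets (orange), with black bars at the median of each length class, ribosomal protein genes left out. Most ribosomal protein and oxidative phosphorylation genes are short and lie near or below the medians of their classes (-0.88 below 500 bases and -0.76 at 500 to 1000 bases), and most HIF targets lie below the medians of theirs.

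Among 44 ribosome biogenesis factors, 21 were higher and 13 lower (median 0.14). Polr1b, a subunit of RNA polymerase I, measured 22.6 and 22.3 scaled TPM in WT and 52.8 and 52.2 in those labelled Usp17le OE-Dux KD, at 1.22 ± 0.05, adjusted p = 4.16e-08. The nucleolar helicase gene Ddx21 rose (0.58 ± 0.03, adjusted p = 1.74e-07), and Npm1, the abundant nucleolar chaperone, measured 8181 and 8357 scaled TPM in WT and 4699 and 4733 in those labelled Usp17le OE-Dux KD and fell (-0.81 ± 0.03, adjusted p = 9.24e-09).

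The integrated stress response, which limits translation and induces ATF4 targets, was mixed, with 13 of 32 higher and 8 lower (median 0.10). Its factor gene Ddit3, known as CHOP, measured 167 and 170.4 scaled TPM in WT and 35.9 and 34.7 in those labelled Usp17le OE-Dux KD, at -2.25 ± 0.14, adjusted p = 1.85e-06. The glutathione-degrading enzyme gene Chac1 measured 2.84 and 3.06 scaled TPM in WT and 10.8 and 10 in those labelled Usp17le OE-Dux KD, at 1.78 ± 0.12, adjusted p = 6.84e-07. Both are ATF4 targets and they moved apart. Sesn2 (1.25 ± 0.06, adjusted p = 5.79e-08), the amino acid transporter gene Slc38a2 (1.42 ± 0.06, adjusted p = 2.96e-08) and Asns, asparagine synthetase (0.61 ± 0.03, adjusted p = 1.98e-07), rose, and Psat1 of serine synthesis fell (-0.63 ± 0.04, adjusted p = 3.33e-07), though not as deposited (-0.06, adjusted p = 0.317). Aminoacyl-tRNA synthetases had 16 of 37 higher and 6 lower (median 0.06), the largest rise being Lars2, which is treated below with ribosomal RNA reads.

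In the endoplasmic reticulum, 11 of 25 chaperone and unfolded protein response genes were higher and 6 lower. Hspa5, the chaperone BiP, rose (0.56 ± 0.04, adjusted p = 6.3e-07), as did Xbp1 (1.00 ± 0.09, adjusted p = 4.77e-06), while the disulfide isomerase gene P4hb measured 839.9 and 819.8 scaled TPM in WT and 459 and 464 in those labelled Usp17le OE-Dux KD and fell (-0.85 ± 0.04, adjusted p = 5.79e-08). Genes of cholesterol synthesis and uptake leaned down, 17 of 25 lower and 3 higher (median -0.35, and 0.21 as deposited). Insig1, which retains the sterol sensor in the endoplasmic reticulum (-0.91 ± 0.04, adjusted p = 6.59e-08), Cyp51 (-0.75 ± 0.05, adjusted p = 1.31e-06) and Pmvk (-0.97 ± 0.08, adjusted p = 3.53e-06) fell.

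Splicing genes had no common direction, 15 higher and 18 lower of 44. Srsf2 measured 152 and 158 scaled TPM in WT and 387 and 373 in those labelled Usp17le OE-Dux KD, at 1.29 ± 0.04, adjusted p = 8.27e-09, and Srsf5 rose as well (1.23 ± 0.06, adjusted p = 1.21e-07), both encoding SR proteins that promote exon inclusion. The kinase genes Clk1 (-1.13 ± 0.05, adjusted p = 4.46e-08) and Clk4 (-1.83 ± 0.08, adjusted p = 3.77e-08), whose products phosphorylate SR proteins, fell. Among spliceosome subunits Sf3b4 rose (1.03 ± 0.05, adjusted p = 9.78e-08) and the short Snrpg fell (-1.62 ± 0.21, adjusted p = 0.000763, or -0.50 length corrected).

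Chromatin genes bear on the study's question because Polycomb complexes place ubiquitin on histone H2A and deubiquitinases remove it. PRC2, which methylates histone H3 at lysine 27, had 5 genes higher and 5 lower of 12. Suz12, a core subunit, measured 97.2 and 99.2 scaled TPM in WT and 206 and 203 in those labelled Usp17le OE-Dux KD, at 1.06 ± 0.04, adjusted p = 9.24e-09, and Aebp2 rose with it (0.94 ± 0.07, adjusted p = 1.42e-06). E130012A19Rik, of the same list, measured 78.6 and 79.5 scaled TPM in WT and 159 and 165 in those labelled Usp17le OE-Dux KD, at 1.03 ± 0.04, adjusted p = 1.86e-08. Ezh2, the catalytic subunit, had a change of -0.41 ± 0.04, adjusted p = 8.42e-06 that turned to 0.16 (adjusted p = 0.0146) as deposited.

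PRC1 subunits and H2A deubiquitinases had 22 of 38 higher and 8 lower (median 0.23), or 17 and 7 after length correction (median 0.21). Bcorl1 (1.29 ± 0.17, adjusted p = 0.000115) and Wdr5 (0.92 ± 0.04, adjusted p = 2.35e-08) rose, and Pcgf5, of a variant PRC1, fell (-0.98 ± 0.06, adjusted p = 6.42e-07). Usp7, listed here as a deubiquitinase gene, measured 56.5 and 59.4 scaled TPM in WT and 117 and 121 in those labelled Usp17le OE-Dux KD, at 1.04 ± 0.04, adjusted p = 2.28e-08. Its difference from the hairpin-only group did not pass the test (0.05 ± 0.04, adjusted p = 0.325).

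Heterochromatin and H3K9 methylation genes, which hold endogenous retroviruses silent, had 11 of 18 higher and 5 lower (median 0.36, or 0.19 after length correction). Trim28, the corepressor KAP1, measured 593 and 602 scaled TPM in WT and 1105 and 1061 in those labelled Usp17le OE-Dux KD, at 0.86 ± 0.03, adjusted p = 2.38e-08. Zfp809, a zinc finger factor that recruits it to retroviral sequence, measured 4.12 and 4.97 scaled TPM in WT and 15.3 and 15.2 in those labelled Usp17le OE-Dux KD, at 1.73 ± 0.13, adjusted p = 1.9e-06. Rif1, which restrains 2C genes and times replication (1.05 ± 0.05, adjusted p = 9.16e-08), and the remodeller gene Smarcad1 (1.09 ± 0.06, adjusted p = 2.22e-07) rose too. In DNA methylation, 6 of 12 were higher and 3 lower, or 4 and 4 after length correction. Tet2, an oxidase of methylated cytosine, rose (1.38 ± 0.08, adjusted p = 2.16e-07, or 0.96 length corrected). So did Dnmt1, the maintenance methyltransferase (0.59 ± 0.05, adjusted p = 3.3e-06, or 0.23 length corrected). Uhrf2 fell (-0.67 ± 0.05, adjusted p = 2.55e-06) and was not called as deposited (-0.11, adjusted p = 0.182).

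Replication helicase and CAF-1 genes showed 10 higher and 9 lower of 23, with Mcm10 up (0.77 ± 0.06, adjusted p = 3.69e-06) and Gins2 down (-0.88 ± 0.05, adjusted p = 1.76e-07, or -0.295 length corrected). Telomere genes had 9 of 21 higher and 5 lower, and Wrap53, which brings telomerase to Cajal bodies, measured 27.7 and 25.6 scaled TPM in WT and 45.5 and 50.7 in those labelled Usp17le OE-Dux KD, at 0.85 ± 0.07, adjusted p = 3.07e-06. Of 29 genes in the p53 list 9 were higher and 13 lower. Trp53 itself rose (0.55 ± 0.04, adjusted p = 6.66e-07), Tigar, a regulator of glycolytic flux, rose (0.94 ± 0.07, adjusted p = 1.14e-06), and the death receptor gene Fas fell (-2.03 ± 0.39, adjusted p = 0.00115). Of 17 Notch genes 7 were higher and 5 lower, and 1 of them had one of the largest falls of all. Dll1 (chr17:15367354-15376872), a Notch ligand, measured 10.2 and 11.5 scaled TPM in WT and 0.896 and 0.696 in those labelled Usp17le OE-Dux KD, 12.3-fold lower (-3.62 ± 0.18, adjusted p = 1.03e-07), and the receptor gene Notch4 rose (1.35 ± 0.14, adjusted p = 1.97e-05).

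Lineage genes were surveyed next. Primitive endoderm genes had 12 of 19 higher and 2 lower (median 0.72, or 0.47 after length correction), at low level for the defining factors. Gata4 measured 1.09 and 1.23 scaled TPM in WT and 3.17 and 2.97 in those labelled Usp17le OE-Dux KD, at 1.33 ± 0.24, adjusted p = 0.000761, and Sox17 0.516 and 0.339 scaled TPM in WT and 1.49 and 0.863 in those labelled Usp17le OE-Dux KD, at 1.25 ± 0.37, adjusted p = 0.0135. The Sox17 call was lost without WT replicate 2 (1.00, adjusted p = 0.0827) and without Usp17le OE-Dux KD replicate 1 (0.89, adjusted p = 0.125). The basement membrane genes Lama1 (0.92 ± 0.07, adjusted p = 2.14e-06) and Col4a1 (0.95 ± 0.06, adjusted p = 5.48e-07) rose, and Apoe measured 326 and 321 scaled TPM in WT and 122 and 118 in those labelled Usp17le OE-Dux KD and fell (-1.43 ± 0.04, adjusted p = 4.41e-09). The sum of the list was 955, 944, 852 and 851, with Apoe and Sparc as abundant members, and 5 of 20 markers, among them Foxa2 and Sox7, were under 1 scaled TPM in all 4 libraries.

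Trophoblast genes had 5 of 19 higher and 4 lower. Tead4 (1.17 ± 0.09, adjusted p = 1.65e-06) and Gata3, at 0.402 and 0.199 scaled TPM in WT and 1.72 and 1.15 in those labelled Usp17le OE-Dux KD (1.96 ± 0.39, adjusted p = 0.00145), rose, and Ascl2 fell (-1.24 ± 0.13, adjusted p = 2.18e-05), while Cdx2 and Elf5 were under 1 scaled TPM. Of 12 neural genes 2 were higher and 4 lower. Stmn2, a neuronal microtubule regulator, measured 412 and 397 scaled TPM in WT and 158 and 149 in those labelled Usp17le OE-Dux KD, at -1.40 ± 0.05, adjusted p = 9.24e-09, Pax6 fell from a lower level (-1.70 ± 0.20, adjusted p = 3.5e-05), and Tubb3 rose (1.19 ± 0.07, adjusted p = 2.32e-07). Among 16 genes of mesoderm and definitive endoderm, 4 were higher and 3 lower.

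Smooth muscle and contractile genes had 13 of 22 lower and 8 higher (median -0.61, or -0.35 after length correction). Acta2 (chr19:34241090-34255590), smooth muscle actin, measured 61 and 56.8 scaled TPM in WT and 6.79 and 7.61 in those labelled Usp17le OE-Dux KD, 8.10-fold lower (-3.02 ± 0.10, adjusted p = 8.57e-09). Calponin gene Cnn1 measured 22.9 and 26.6 scaled TPM in WT and 3.86 and 3.20 in those labelled Usp17le OE-Dux KD, at -2.78 ± 0.18, adjusted p = 5.19e-07, and transgelin gene Tagln measured 20.2 and 22.8 scaled TPM in WT and 4.48 and 3.42 in those labelled Usp17le OE-Dux KD, at -2.42 ± 0.21, adjusted p = 8.78e-06. Des, the gene of the muscle filament desmin, fell as well (-1.24 ± 0.07, adjusted p = 2.28e-07), but Tnnt2, cardiac troponin T, rose (1.06 ± 0.25, adjusted p = 0.00445). Acta2 was above the plasmid-only group (1.79 ± 0.10, adjusted p = 1.7e-07) and below the hairpin-only group (-2.47 ± 0.10, adjusted p = 2.44e-07).

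Germ cell and meiosis genes had 7 of 28 higher and 12 lower (median -0.23, and 0.33 as deposited). After length correction 10 were higher and 11 lower (median 0.05). The RNA-binding protein gene Dazl measured 75.9 and 81.7 scaled TPM in WT and 147 and 148 in those labelled Usp17le OE-Dux KD, at 0.91 ± 0.05, adjusted p = 2.41e-07, the tubulin genes Tuba3a (1.59 ± 0.05, adjusted p = 8.27e-09) and Tuba3b (1.97 ± 0.06, adjusted p = 8.72e-09) and the retrotransposon defence gene Tex19.1 (1.26 ± 0.07, adjusted p = 1.58e-07) rose, and Ddx4 (-1.11 ± 0.07, adjusted p = 5.31e-07) and Dmrt1 (-1.24 ± 0.08, adjusted p = 5.92e-07) fell. The difference of Dazl from the plasmid-only group did not pass the test (0.03 ± 0.05, adjusted p = 0.671), and Dazl was above the hairpin-only group (1.28 ± 0.05, adjusted p = 2.44e-07). Tuba3a and Tuba3b are near-identical copies, so their split is uncertain.

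Imprinted genes had 8 of 23 higher and 11 lower. The growth inhibitors Phlda2 (-1.82 ± 0.06, adjusted p = 1.17e-08) and Cdkn1c (-1.56 ± 0.11, adjusted p = 8.61e-07) and the neuronal gene Nnat (-1.86 ± 0.17, adjusted p = 6.87e-06) fell, and the zinc finger gene Plagl1 rose (1.69 ± 0.20, adjusted p = 4.19e-05). Zfp57, the zinc finger factor that protects imprints from demethylation, measured 28.3 and 28.9 scaled TPM in WT and 108 and 110.5 in those labelled Usp17le OE-Dux KD, at 1.93 ± 0.04, adjusted p = 1.8e-09. Interferon-induced genes had 4 of 17 higher and 2 lower, with Bst2, tetherin, falling (-1.23 ± 0.09, adjusted p = 1.48e-06, or -0.46 length corrected) and Ddx58, the RNA sensor RIG-I, rising (1.24 ± 0.12, adjusted p = 9.29e-06).

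Outside the lists, 2 genes of the Gadd45 family, known for growth arrest and stress, had large falls. Gadd45g (chr13:51846678-51848468) measured 75.7 and 77.3 scaled TPM in WT and 2.40 and 3.39 in those labelled Usp17le OE-Dux KD, 25.9-fold lower (-4.70 ± 0.17, adjusted p = 2.04e-08), and Gadd45b measured 246 and 244 scaled TPM in WT and 48 and 45.3 in those labelled Usp17le OE-Dux KD, 5.25-fold lower (-2.39 ± 0.04, adjusted p = 8.76e-10). Plac8 fell 7.48-fold (-2.90 ± 0.06, adjusted p = 1.51e-09), and the gut hormone gene Pyy (-3.19 ± 0.37, adjusted p = 3.51e-05) and the muscle gene Jsrp1 (-3.15 ± 0.30, adjusted p = 9.33e-06) fell from low levels. Large rises of abundant genes included Mat2a (chr6:72432799-72439558), which makes the methyl donor S-adenosylmethionine, and Sgk1 (chr10:21882184-21999903), a serum- and glucocorticoid-regulated kinase. Mat2a measured 15.6 and 18.4 scaled TPM in WT and 135 and 131 in those labelled Usp17le OE-Dux KD, at 2.97 ± 0.07, adjusted p = 2.97e-09. Sgk1 measured 62.5 and 60.2 scaled TPM in WT and 330.4 and 324 in those labelled Usp17le OE-Dux KD, at 2.41 ± 0.03, adjusted p = 9.23e-11. Calcoco2, an autophagy receptor gene, rose too (1.67 ± 0.06, adjusted p = 1.09e-08).

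The same agents in the other order gave lower or higher levels of several of these genes. In the group labelled Dux KD-Usp17le OE, Foxd3 had a mean of 4.48 ± 0.810 scaled TPM (SD, n = 2), below the libraries labelled Usp17le OE-Dux KD (2.24 ± 0.15, adjusted p = 6.06e-06). Pramel6 (3.37 ± 0.37, adjusted p = 8.63e-05), Zscan4d (2.26 ± 0.18, adjusted p = 1.4e-05), Usp17le (2.77 ± 0.39, adjusted p = 0.000721) and Myc (1.16 ± 0.11, adjusted p = 4.7e-05) were likewise higher with the plasmid first. Dux did not pass this test (1.31 ± 0.51, adjusted p = 0.0681). Bnip3 (-1.38 ± 0.03, adjusted p = 3.5e-08), Aldoa (-0.59 ± 0.03, adjusted p = 4.92e-07) and Acta2 (-3.23 ± 0.10, adjusted p = 9.93e-08) were lower with the plasmid first, and Sgk1 (0.88 ± 0.03, adjusted p = 2.31e-07) higher.

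Genes of low level also appeared among the largest rises. Dusp27 measured 0.583 and 0.531 scaled TPM in WT and 8.39 and 9.62 in those labelled Usp17le OE-Dux KD, at 3.79 ± 0.17, adjusted p = 4.57e-08, and Spic, an ETS factor gene, measured 0.789 and 0.507 scaled TPM in WT and 7.09 and 5.52 in those labelled Usp17le OE-Dux KD, at 3.11 ± 0.27, adjusted p = 4.12e-06. The PRAME-family copies Gm13128 (3.84 ± 0.20, adjusted p = 1.38e-07) and Pramef17 (3.93 ± 0.35, adjusted p = 5.06e-06) rose together, and reads shared by such copies were dropped. Among genes called with no overlap and at least 2 scaled TPM in the higher group, 3 of the 15 largest rises and 9 of the 15 largest falls were entries under 200 bases, which are small RNAs or fragments that standard libraries capture poorly. Snord42a, a small nucleolar RNA of this kind, was listed at 0 in both WT libraries and at 3.20 and 3.93 scaled TPM in the others, and Mir1907 at 0, 0, 3.20 and 0.98, from which no fold is drawn.

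Signs of RNA composition moved with the comparison as well. Lars2 measured 29.9 and 36.1 scaled TPM in WT and 222 and 242 in those labelled Usp17le OE-Dux KD, Mir6236 5.72 and 7.82 scaled TPM in WT and 86.6 and 93.3 in those labelled Usp17le OE-Dux KD and Rn45s 308 and 354 scaled TPM in WT and 1008 and 1073 in those labelled Usp17le OE-Dux KD, and all 3 entries are places where ribosomal RNA reads pile up, and their rises (2.82, 3.73 and 1.65) are not read as changes of these genes. Replication-dependent histone genes, whose messages lack a poly(A) tail, had none higher and 15 lower of 52 (median -0.63). After length correction this turned to 5 higher and 3 lower (median 0.27). Hist3h2a fell on either scale (-2.85 ± 0.26, adjusted p = 1.8e-05, -1.84 length corrected). The part of ribosomal RNA content in the differences above was not tested.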

How the data were processed

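RNA of 10 libraries was sequenced, 2 for each of 5 groups of mouse embryonic stem cells, and groups were taken from the labels. Reads were trimmed by the authors (Trim Galore), aligned to mm10 (HISAT2), assigned to genes (featureCounts) and expressed as TPM, which is the unit of the deposited table; versions are not given in the sources used here. By the default settings of that counter, reads that map to several places and the strand of a read were not used, so antisense partners and near-identical copies are not separated. TPM multiplied by gene length returned whole reads for 100% of values within a tolerance of 0.01, which gave the depths and read numbers.

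TPM was divided by median-of-ratios factors, 14706 of 24370 genes that reached 0.5 TPM in 2 or more of the 10 libraries were kept, and log2(scaled TPM + 0.1) was fitted with limma 3.58.1, using statmod 1.5.0 under R 4.3.3, as 5 group means with the trend and robust options. Tests were two-sided, adjusted by Benjamini-Hochberg over all genes, with a threshold of 0.05. Every adjusted p printed here is limma's. The script was tested on simulated data. For the length-corrected values, a smooth trend on log2 gene length, fitted without cytoplasmic ribosomal protein genes, was removed from each library.

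The members and gene lists were chosen with earlier results of these data known. Named genes were Usp17le, Dux, the genes with the largest changes among all genes, among abundant genes and in each list, the most abundant members of each list, 6 pluripotency factors and all measured Zscan4, Usp17l, Eif1a-like and Tcstv genes. The receptor genes Acvr1b, Acvr2a and Acvr2b, the Nodal and activin genes Inha and Lefty1, the primitive endoderm genes Sox7 and Foxa2 and the trophoblast genes Cdx2 and Elf5 are mentioned beyond that rule, after their values were seen. Of the table's symbols, 27 had turned into dates; they stayed in the fit and are not named. Sequences came from RefSeq windows (GRCm38.p6) and gene positions from GENCODE on GRCm38.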

Additional observations from a re-analysis of the deposited data

How the results depend on the processing

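The number of genes called stayed within 1.5 times the main 8959 under all 13 alternatives run, from 7648 without 1 library to 10368 on TPM as deposited. Leaving out each of the 4 libraries in turn gave 7648 to 7923 calls and 2144 to 2268 of at least 2-fold, where the lone library left in a group is assumed to vary like the other groups. The count of at least 2-fold changes, 2393, moved to 3878 on TPM as deposited and to 1415 with a pseudocount of 1; the scaling decides the first (91.0% of those were higher, against 46.6%), and the larger pseudocount shrinks the change of low genes. A limma voom fit on recovered reads, added after seeing the data, gave 9305 and 2571. The count-model tests planned on those reads were not run. The replicate numbers did not pair the samples (correlation of replicate differences -0.022 over 14706 genes), and the fit with a replicate block gave 8887 calls and 2381 of at least 2-fold. Of 188 genes named or checked, 3 changed direction on TPM as deposited, Pou5f1 to 0.069, Gapdh to 0.05 and Ezh2 to 0.16, and Dppa5a changed to 0.196 with length correction. The histone list lost its direction with length correction, while HIF targets and glycolytic enzymes stayed lower. Depth limits Dux, whose 4 values rest on 5 to 16 reads, and the other low 2C genes.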
